A study of Mus musculus with 8 samples.

Results

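The lysosomal genes described here are 36 of the 54532 gene rows in the deposited count table, chosen by gene name. They comprise 10 proteases (9 cathepsins and legumain), 7 glycosidases, 3 other hydrolases, 3 lumenal cofactors, 5 membrane proteins, 5 subunits of the vacuolar H+-ATPase (V-ATPase) and 3 transcription factors of the MiT/TFE family. The rule uses gene names and no measured value, but the list was drawn up with earlier results of these data known. They were followed in RNA sequencing of macrophages collected from the peritoneal cavity of mice given thioglycollate broth, an irritant that recruits leukocytes. Wild-type (WT) cells were compared with cells carrying a knockout (KO) of Men1, the gene of menin, a scaffold of histone methyltransferase complexes. Sample titles add the letter M or F, which the labels do not spell out, and a number of its own for each library. The wild-type libraries were M_WT_5643, M_WT_6258, M_WT_6255 (3 M_WT) and F_WT_5638 (1 F_WT), and the knockout libraries were M_KO_5944, M_KO_5645, M_KO_5642 (3 M_KO) and F_KO_5639 (1 F_KO). All 8 libraries share the thioglycollate treatment. Strain, age, the Men1 allele and any driver of its deletion were not given in the sources used here, nor is it said that libraries came from separate animals. P-values therefore measure the spread between these libraries, which may be technical.

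Lysosomes are acidic compartments in which macrophages break down engulfed and recycled material. The V-ATPase pumps protons into the lumen, soluble hydrolases digest protein, glycan and lipid there, and cofactors such as saposins present lipids to them. Membrane proteins shield the limiting membrane and export the products. The MiT/TFE transcription factors Tfeb, Tfe3 and Mitf bind E-boxes with the core CACGTG, and lysosomal promoters are known for a longer palindrome around it, the CLEAR element.

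The promoters were read for this core, a feature that the choice of genes did not use. RefSeq promoters (GRCm38.p6) from 250 bases before to 50 after each start site were found for 29 of the 36 genes. CACGTG, which reads the same on both strands, was present in 13 of the 29 (44.8%). Among the genes tested for expression it was present in 1147 of 9639 such genes (11.9%), and among all genes of the RefSeq table in 8.09%. The longer TCACGTG, which overlaps it, was present on either strand in 12 of the 29 (41.4%) and in 7.03% of tested genes. The CLEAR palindrome was found in full in 0 of the 29 and in 0.840% of tested genes. GCATGC, the same letters in another order, was in 5 of the 29 (17.2%) and in 11.3% of tested genes. A match is a description of the letters and not a shown binding site.

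**Figure D1:**
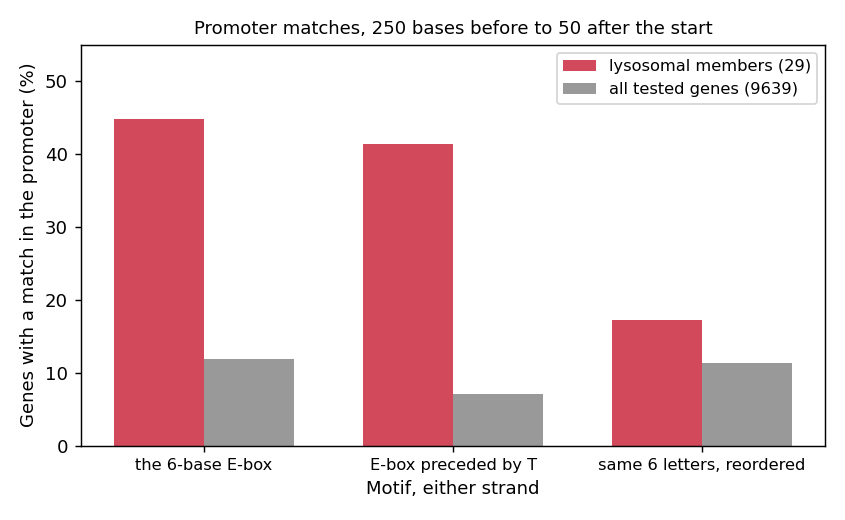
Share of genes (percent, linear axis from 0) whose RefSeq promoter window holds each motif on either strand, for the 29 lysosomal genes with a promoter in the table (red) and for the 9639 tested genes with one (grey). The 6-base core CACGTG was in 44.8% against 11.9%, TCACGTG in 41.4% against 7.03%, and the reordered GCATGC in 17.2% against 11.3%.

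By role, the core was present in 4 of 8 protease promoters (Ctsa, Ctsd, Ctsl and Lgmn), 4 of 7 glycosidase promoters (Gla, Glb1, Gaa and Naglu) and both V-ATPase promoters in the table (Atp6v0d1 and Atp6v1a). It was also present in Sgsh, Lamp1 and Mcoln1, and in none of the promoters of Psap, Grn, Npc2, Tfeb, Tfe3 and Mitf. The 6 stretches below show the core in capitals, 5′ to 3′ on the strand of the gene, and were picked because GENCODE vM21 annotates no exon in them. That of Lamp1 (chr8:13159083-13159160, GRCm38, plus strand) ends at the base before the gene and holds 4 copies of the core. Those of Glb1 (chr9:114401013-114401052, plus), Gaa (chr11:119267806-119267845, plus) and Ctsd (chr7:142388050-142388077, minus) also lie before the gene. Those of Lgmn (chr12:102439119-102439158, minus) and Atp6v1a (chr16:44139368-44139407, minus) lie in an intron of a longer transcript.
Lamp1: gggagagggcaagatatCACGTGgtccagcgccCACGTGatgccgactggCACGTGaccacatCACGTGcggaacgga
Glb1: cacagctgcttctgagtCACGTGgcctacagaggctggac
Gaa: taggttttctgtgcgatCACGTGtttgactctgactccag
Ctsd: tccccCACGTGacctgtatccagtcatt
Lgmn: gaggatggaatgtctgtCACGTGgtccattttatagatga
Atp6v1a: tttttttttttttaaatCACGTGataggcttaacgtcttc

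Total counts ran from 18206427 to 22853583 per library, and a count of 0 allows up to 3 counts, or 0.118 to 0.170 CPM, counting error only. CPM are counts per 1000000 counts of the library, after edgeR's TMM factor for library composition. Men1 was at 17.1 to 25.8 CPM in M_WT, against 6.51 to 8.32 CPM in M_KO, where 35.7% of the M_WT mean remained. Its log2 fold change was -1.49, which edgeR did not call (adjusted p = 0.284) and DESeq2 did (adjusted p = 4.45e-06). The F pair held 18.0 CPM in F_WT, against 11.8 CPM in F_KO. M_WT_5643 stood apart from its group: over the tested genes it had a Spearman correlation of 0.984 with M_KO_5944, but of 0.973 and 0.976 with the other M_WT libraries. M_KO_5642 also stood apart, at 0.966 and 0.959 with the other M_KO libraries, but at 0.980 with F_WT_5638 and at 0.967 and 0.969 with M_WT_6258 and M_WT_6255. M_WT_5643 was the lowest M_WT library for 24 of the 35 tested lysosomal genes (68.6%) and for 38.1% of all 13646 tested genes. M_WT_6258 was the highest for 22 of the 35 (62.9%) and for 32.4% of all tested genes. Without 1 of the 6 M libraries, the fitted fold change moved by over 1.5 times or turned in sign for 29 of the 35 genes. The others were Ctsc, Ctsl, Sgsh, Npc2, Cd63 and Tfeb. A fitted value near 0 meets this rule with a small move, and the share of all tested genes that meet it is not given here.

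In wild-type macrophages the lysosomal genes spanned from among the most abundant transcripts to nearly undetected ones. Levels of different genes were compared on the deposited FPKM scale (fragments counted, scaled to gene length and library size), always in the order M_WT_5643, M_WT_6258, M_WT_6255. Psap, the precursor of the saposins, was highest, at 1145, 1653 and 1329 FPKM (1375 ± 257, SD, n = 3). Its mean ranked above that of every other lysosomal gene, and its lowest library stood above the highest library of the next gene. Ctss, a cysteine protease of antigen presentation, followed at 1005, 787 and 894 FPKM (895 ± 109). Ctsd, the main aspartic protease of lysosomes, was at 647, 849 and 722 FPKM (739 ± 102). Its level is uncertain, since 34.4% of its exonic bases are shared with Gm49369, a gene on the same strand with 0 counts. Ctsb, an abundant cysteine protease, was at 516, 831 and 670 FPKM (672 ± 158). Each of these 3 proteases overlapped the next over the M_WT libraries. Within every M_WT library Ctsd stood above Ctsb, while Ctss stood above both except in M_WT_6258, where it was below them.

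Ctsz, a cysteine carboxypeptidase, was at 414, 676 and 660 FPKM (583 ± 147). Grn, the gene of progranulin, was at 522, 623 and 590 FPKM (578 ± 51.3). Lamp1, a heavily glycosylated protein of the limiting membrane, was at 436, 550 and 526 FPKM (504 ± 59.8), and its range overlapped that of Grn. A gap separated these 7 genes from Lgmn (267 ± 104 FPKM), the highest of a middle range that ran through Hexa, Ctsl, Ctsa, Ctsc and Npc2 (150 ± 3.27 FPKM). Lgmn had the widest spread of these, from 164 FPKM in M_WT_5643 to 371 FPKM in M_WT_6258, while Npc2 stayed between 147 and 153 FPKM. Another gap lay between Npc2 and Gusb (108 ± 21.7 FPKM). From Gusb down to Npc1 (10.2 ± 1.53 FPKM), every gene overlapped its neighbour in the order.

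The lowest genes were again separable. Mcoln1, a cation channel of the lysosomal membrane, was at 2.85, 6.49 and 6.75 FPKM, and Sgsh, a sulfatase of heparan sulfate, was at 1.58, 1.99 and 1.73 FPKM. Tfeb was at 1.07, 1.504 and 1.41 FPKM, the lowest of the transcription factors. Ctsk, best known as the collagen-degrading protease of osteoclasts, was at 0.915, 0.388 and 0.365 FPKM. Atp6v0d2, an alternative d subunit also abundant in osteoclasts, was at 0.0728, 0.314 and 0.129 FPKM, from 4, 16 and 7 counts. In all, 27 of the 35 neighbouring pairs in the order overlapped and 8 did not. The same 6 genes stayed at the top with TPM, with a mean of log2(FPKM + 1) and without any 1 M_WT library.

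**Figure D2:**
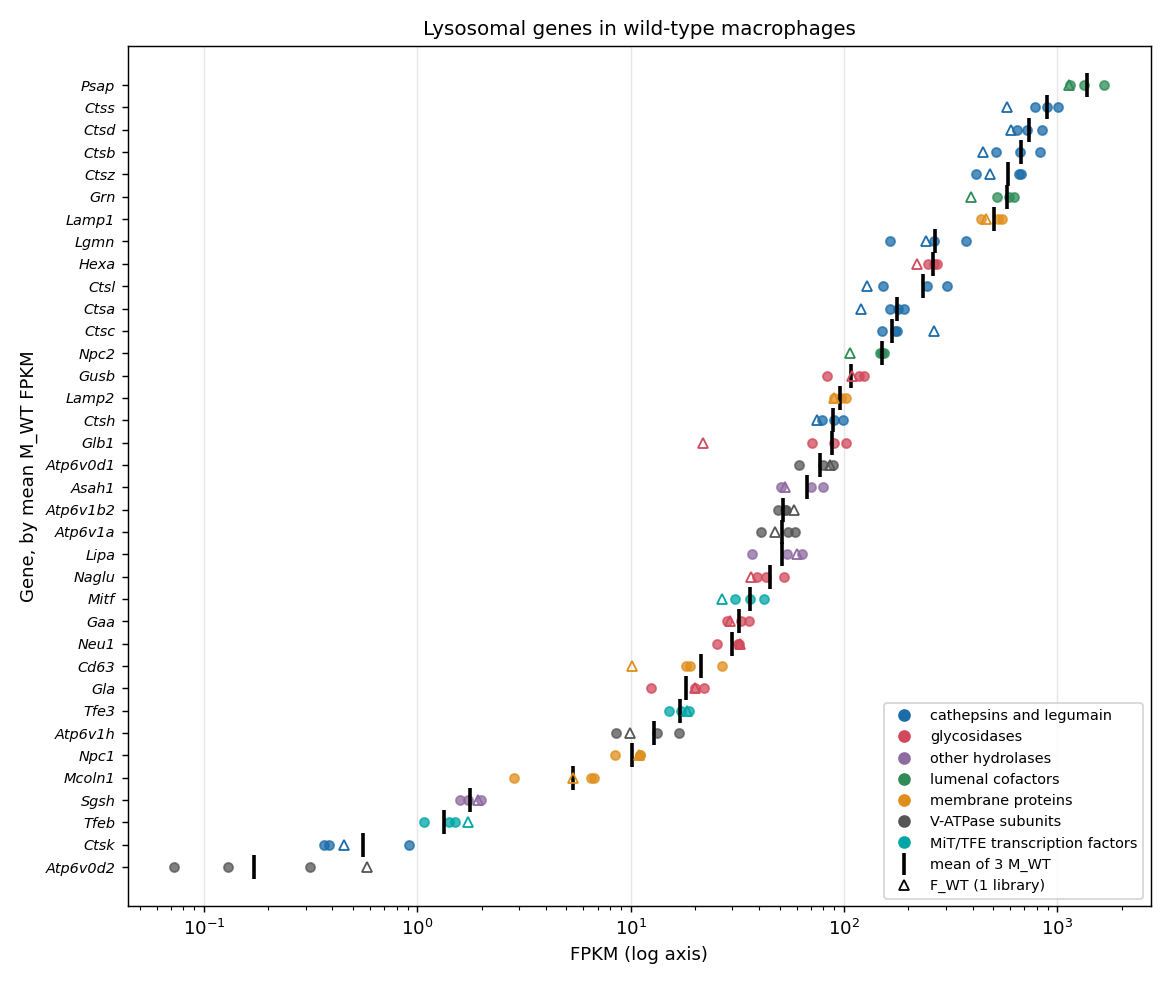
FPKM of each lysosomal gene (log axis) in the 3 M_WT libraries (filled points, coloured by role), their mean (black bar) and the F_WT library (open triangle), ordered by mean. Psap stood alone at 1375 FPKM, and Mcoln1, Sgsh, Tfeb, Ctsk and Atp6v0d2 were separated at the lower end, while most neighbours between overlapped.

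The 36 genes made up 1.94, 2.58 and 2.45% of summed FPKM in the M_WT libraries (2.32 ± 0.342%) and 2.19, 2.14 and 2.40% in the M_KO libraries, in the order M_KO_5944, M_KO_5645, M_KO_5642 (2.24 ± 0.137%). The 2 ranges overlapped. The proteases alone held 1.18 ± 0.172% in M_WT and 1.12 ± 0.0570% in M_KO, and the 3 lumenal cofactors 0.650 ± 0.107% and 0.621 ± 0.0502% (SD, n = 3 each). V-ATPase subunits held 0.0597% and 0.0623% of the mean. The lysosomal share of summed FPKM differed between genotypes by less than the spread between libraries of 1 genotype.

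No lysosomal gene passed the test in M_KO against M_WT. EdgeR's quasi-likelihood test called 0 of the 35 genes that passed its filter on low counts, with a lowest adjusted p of 0.465, against 3 of 13646 genes overall (0.0220%); Atp6v0d2 was removed by that filter. DESeq2 called 0 of the 36, with a lowest adjusted p of 0.145, against 1.21% of genes. In the authors' deposited table, 0 of the 36 had an adjusted p under 0.05, and the lowest was 0.241, for Cd63. At an unadjusted edgeR p under 0.05 stood 3 of 35 genes, where the share of all tested genes was 9.56%: Cd63 and Ctsl were lower (4.22% of all genes were) and Tfeb higher (5.33%) in M_KO. DESeq2 gave 5 of 35 at an unadjusted p under 0.05, where that share was 6.31% over all its rows and 10.2% over the genes that edgeR tested. In 4 genes the M_KO and M_WT libraries did not overlap (Cd63 and Npc2 lower, Ctsc and Tfeb higher), where 16.1% of all tested genes did not (7.14% lower and 8.99% higher). With all 6 libraries, the edgeR count and the count without overlap lay near or below their background. Without M_WT_5643, 14 of 36 genes did not overlap, where 31.2% of all genes did not. In that setting 6 of 36 stood at an unadjusted edgeR p under 0.05, where 10.5% of all genes did, counting both directions. All 6 were lower in M_KO, and the share of all genes that were lower is not given here.

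Fitted log2 fold changes of the 35 genes ran from -0.87 for Cd63 to 0.89 for Tfeb. Of them 22 were negative and 13 positive, with a median of -0.10, where all tested genes had a median of 0.01. For 28 genes the fitted value lay within 0.5 of 0, and the median standard error was 0.22. The medians by role were -0.14 for the proteases, -0.02 for the glycosidases, -0.14 for 4 V-ATPase subunits, -0.09 for the membrane proteins, -0.21 for the lumenal cofactors, 0.22 for the other hydrolases and 0.06 for the MiT/TFE factors. Without 1 library the median over the lysosomal genes ran from -0.18 (without M_WT_5643) to -0.014 (without M_WT_6258), and that of the proteases from -0.17 (without M_KO_5944) to -0.029 (without M_WT_6258). Without M_WT_5643 edgeR still called 0 of them (0.149% of all genes) and DESeq2 called 1, Ctsl (log2 fold change -1.02, DESeq2 adjusted p = 0.0331), where 1.97% of genes were called. Without M_KO_5944 DESeq2 called 3, Cd63 (-1.06), Tfeb (1.10) and Sgsh (0.93), where 3.81% of genes were called, and edgeR called 0 (0.0354% of all genes). In bulk RNA, fewer cells of a type and less RNA per cell cannot be told apart.

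**Figure D3:**
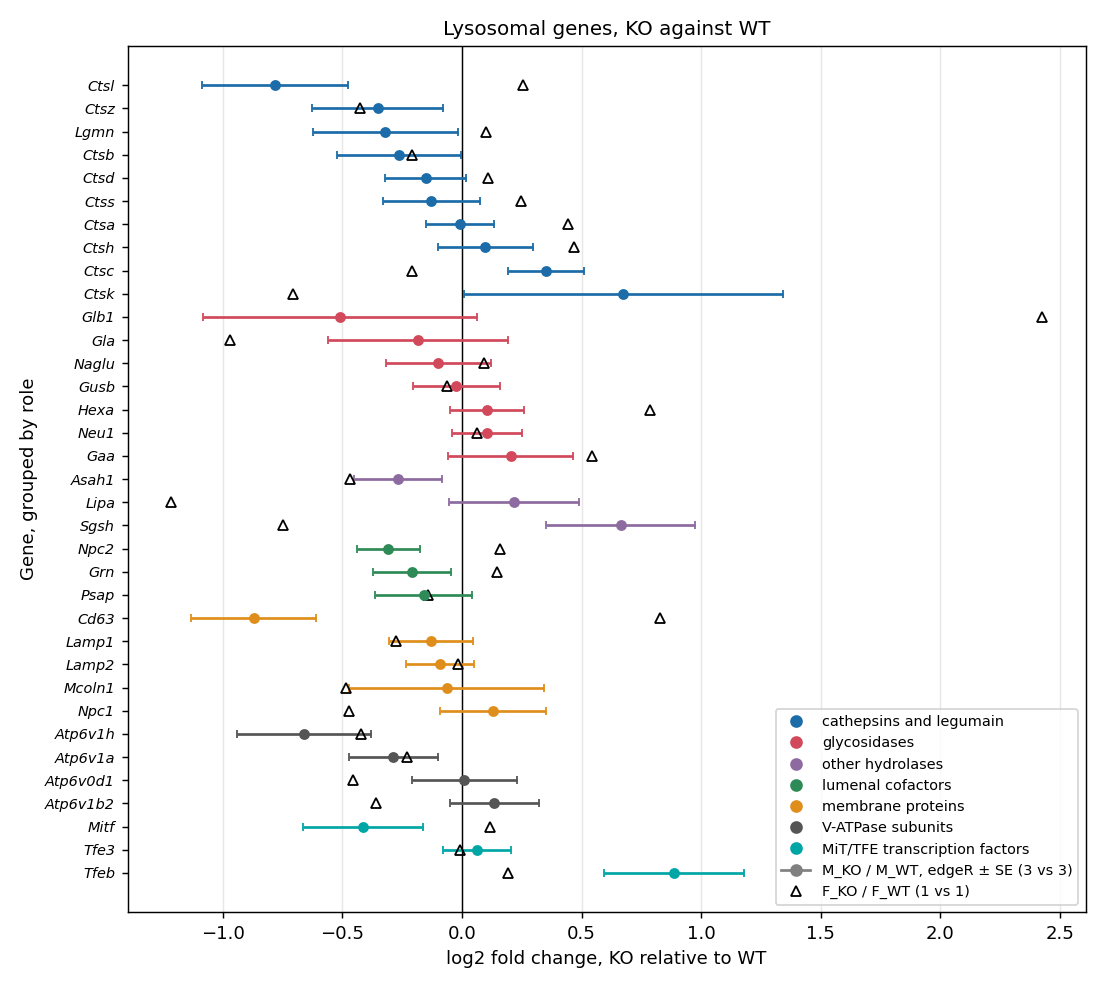
Fitted log2 fold change of M_KO against M_WT (filled points, coloured by role, with edgeR standard errors, 3 against 3 libraries) and the log2 CPM difference of F_KO from F_WT (open triangles, 1 against 1, no error) for the 35 tested lysosomal genes. Most M values lay within 0.5 of 0, Tfeb (0.89) and Cd63 (-0.87) were the extremes, and the F value of Glb1 (2.42) lay farthest from its M value.

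Among the proteases, 7 of 10 fitted values were negative and 3 positive. Ctsl, a cysteine endopeptidase, was at 982, 1964 and 1607 CPM in M_WT, against 1021, 643 and 995 CPM in M_KO. M_WT_5643 lay among the M_KO libraries, so the groups overlapped, and the means were 1518 ± 497 and 886 ± 211 CPM (SD, n = 3). The log2 fold change was -0.78 (SE 0.31, edgeR adjusted p = 0.499), and it ran from -1.01 without M_WT_5643 to -0.55 without M_WT_6258. Exons of an antisense gene cover 26.9% of the exonic bases of Ctsl. That gene had 0 counts, which does not show how reads from the shared bases were assigned. Ctsc, the dipeptidyl peptidase that activates granule serine proteases, was at 1031, 874 and 1014 CPM in M_WT, against 1357, 1304 and 1074 CPM in M_KO. All 3 M_KO libraries stood above the M_WT libraries (log2 fold change 0.35, SE 0.16, edgeR adjusted p = 0.545).

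Abundant proteases other than these overlapped between genotypes. Ctsb was at 3118, 5022 and 4101 CPM in M_WT, against 3514, 2656 and 4060 CPM in M_KO (log2 fold change -0.26, SE 0.26). Ctsd was at 1521, 1993 and 1717 CPM in M_WT, against 1569, 1711 and 1445 CPM in M_KO (-0.15, SE 0.17). How reads from the exons that Ctsd shares with Gm49369 were assigned is not known. Ctss was at 1363, 1068 and 1228 CPM in M_WT, against 1380, 1086 and 893 CPM in M_KO (-0.13, SE 0.20). Without M_WT_6258, the highest M library for Ctsb and Ctsd, these values were -0.088 for Ctsb and -0.047 for Ctsd. Ctsz was at 596, 972 and 962 CPM in M_WT, against 725, 473 and 790 CPM in M_KO (-0.35, SE 0.27, and -0.16 without M_KO_5645). Lgmn, the asparaginyl endopeptidase that processes other cathepsins, was at 381, 861 and 622 CPM in M_WT, against 420, 588 and 491 CPM in M_KO. The 3 M_KO libraries of Lgmn lay inside the M_WT range, and its log2 fold change of -0.32 (SE 0.30) was -0.01 without M_WT_6258 and -0.57 without M_WT_5643.

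Fold changes near 0 were fitted for Ctsa (-0.01, SE 0.14), a carboxypeptidase that also protects Glb1 and Neu1 proteins, and for Ctsh (0.10, SE 0.20), an aminopeptidase. Of the exonic bases of Ctsa, 10.5% lie opposite exons of Pltp, which had 87456 counts over the 8 libraries, and the strand setting of the counting is not given in the sources used here, so the Ctsa count is uncertain. Ctsk was at 1.38, 0.585 and 0.557 CPM in M_WT, against 0.907, 0.568 and 2.53 CPM in M_KO. These rest on 28, 11 and 11 counts and on 16, 11 and 64 counts, and the fitted 0.67 (SE 0.67) became -0.20 without M_KO_5642.

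The glycosidases had the median closest to 0 of all roles, with 4 of 7 fitted values negative and 3 positive. Glb1, beta-galactosidase, was the exception in spread. It was at 212, 305 and 274 CPM in M_WT, against 221, 290 and 48.1 CPM in M_KO. Of the M_KO libraries, 2 lay inside the M_WT range and M_KO_5642 far below it. The log2 fold change of -0.51 (SE 0.57, edgeR adjusted p = 0.805) became -0.06 without M_KO_5642. In the F pair the order was opposite, with 66.0 CPM in F_WT, against 355 CPM in F_KO. The low libraries M_KO_5642 and F_WT_5638 were also the 2 lowest for the summed level of 8 markers of resident large peritoneal macrophages, at 4568 and 7451 CPM, against 9991 to 15477 CPM in the other 6 libraries. They were the 2 lowest for 3 of these markers (Timd4, Selp and Prg4, the most abundant), while F_KO, the highest library for Glb1, was the lowest for Icam2 and Cd5l. The part of these cells in the Glb1 level was not tested.

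Hexa, the alpha subunit of beta-hexosaminidase A, was at 543, 525 and 497 CPM in M_WT, against 527, 668 and 491 CPM in M_KO (log2 fold change 0.10, SE 0.15). Gaa, acid alpha-glucosidase, was at 171, 136 and 159 CPM in M_WT, against 193, 232 and 112 CPM in M_KO (0.20, SE 0.26). M_KO_5645 was the highest and M_KO_5642 the lowest M library for both genes. Gla, alpha-galactosidase A, was at 40.5, 72.1 and 66.4 CPM in M_WT, against 36.5, 38.5 and 82.8 CPM in M_KO (-0.18, SE 0.37), so that M_KO_5642 was here the highest. The remaining 3 were close to equal: Gusb, beta-glucuronidase (-0.02, SE 0.18), Neu1, a sialidase (0.11, SE 0.15), and Naglu, which acts on heparan sulfate (-0.10, SE 0.22).

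Of the other hydrolases, Sgsh was at 6.96, 8.78 and 7.70 CPM in M_WT, against 7.14, 15.6 and 14.4 CPM in M_KO. M_KO_5944 lay inside the M_WT range and the other M_KO libraries above it (log2 fold change 0.66, SE 0.31, edgeR adjusted p = 0.549). Sgsh shares 21.6% of its exonic bases with Card14 on the opposite strand, a gene with 20 counts. Lipa, lysosomal acid lipase, was at 110, 188 and 162 CPM in M_WT, against 150, 146 and 240 CPM in M_KO (0.22, SE 0.27). Asah1, acid ceramidase, was at 171, 271 and 240 CPM in M_WT, against 193, 179 and 196 CPM in M_KO (-0.27, SE 0.18), where the M_KO libraries lay close together near the lowest M_WT library. The Asah1 value was -0.43 without M_WT_5643 and -0.12 without M_WT_6258.

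All 3 lumenal cofactors had negative fitted values. Npc2, which carries cholesterol within the lumen, was at 833, 797 and 828 CPM in M_WT, against 734, 630 and 627 CPM in M_KO. The groups did not overlap and each varied little, with means of 819 ± 19.5 and 664 ± 60.7 CPM (SD, n = 3; log2 fold change -0.31, SE 0.13, edgeR adjusted p = 0.526). Npc2 had the other sign in the F pair, with 583 CPM in F_WT, against 651 CPM in F_KO. Psap was at 3139, 4529 and 3688 CPM in M_WT, against 3404, 3071 and 3716 CPM in M_KO (-0.16, SE 0.20, and -0.014 without M_WT_6258). Grn was at 1813, 2161 and 2073 CPM in M_WT, against 1839, 1865 and 1543 CPM in M_KO (-0.21, SE 0.16). M_WT_5643 was the lowest M_WT library for each, and both overlapped between genotypes.

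Cd63, a tetraspanin of late endosomes and lysosomes, had the lowest fitted value of the lysosomal genes. It was at 66.5, 98.2 and 71.0 CPM in M_WT, against 53.0, 29.1 and 47.1 CPM in M_KO, with means of 78.6 ± 17.2 and 43.1 ± 12.4 CPM (SD, n = 3). Every M_KO library lay below every M_WT library (log2 fold change -0.87, SE 0.26, edgeR adjusted p = 0.465). Leaving out any 1 of the 6 libraries gave fitted values from -1.04 to -0.65, each with an unadjusted edgeR p under 0.05. The F pair ran the other way, with 37.5 CPM in F_WT, against 66.6 CPM in F_KO. Lamp1 was at 1166, 1468 and 1423 CPM in M_WT, against 1161, 1123 and 1438 CPM in M_KO (-0.13, SE 0.18). Lamp2, its partner in the membrane coat, was at 856, 977 and 932 CPM in M_WT, against 939, 791 and 872 CPM in M_KO (-0.09, SE 0.14). These 2 most abundant membrane genes overlapped between genotypes. So did Npc1, the membrane exporter of cholesterol (0.13, SE 0.22), and Mcoln1 (-0.06, SE 0.41), which was at 21.5 CPM in M_WT_5643 and at 49.0 and 51.5 CPM in the other M_WT libraries.

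**Figure D4:**
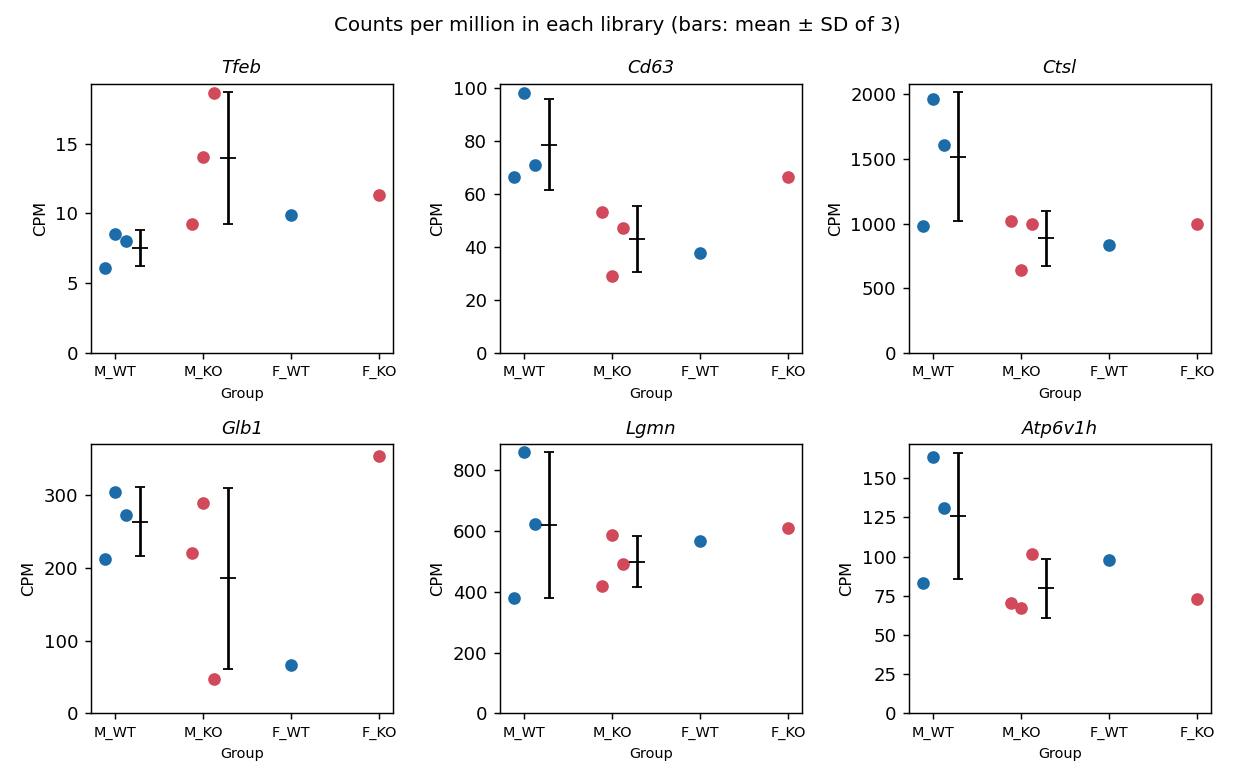
CPM of Tfeb, Cd63, Ctsl, Glb1, Lgmn and Atp6v1h in each of the 8 libraries (blue WT, red KO), with the mean ± SD of the 3 M libraries beside them, on linear axes from 0. Tfeb and Cd63 did not overlap between M_WT and M_KO, and Glb1 was low in M_KO_5642 (48.1 CPM) and F_WT_5638 (66.0 CPM).

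The V-ATPase subunits gave 2 negative and 2 positive fitted values. Atp6v1h, a regulatory subunit of the peripheral sector, was at 83.2, 164 and 131 CPM in M_WT, against 70.7, 67.4 and 102 CPM in M_KO. The groups overlapped between M_WT_5643 and M_KO_5642 (log2 fold change -0.66, SE 0.28, edgeR adjusted p = 0.524, with -0.88 without M_WT_5643 and -0.43 without M_WT_6258). Atp6v1a, the catalytic subunit, was at 246, 357 and 333 CPM in M_WT, against 240, 231 and 299 CPM in M_KO (-0.29, SE 0.19). Atp6v1b2, which forms the head with it, was at 285, 279 and 262 CPM in M_WT, against 318, 229 and 362 CPM in M_KO (0.14, SE 0.19). These 2 head subunits had opposite signs, and both overlapped between genotypes. Atp6v0d1, the widely expressed d subunit of the membrane sector, was at 110, 159 and 145 CPM in M_WT, against 124, 115 and 179 CPM in M_KO (0.01, SE 0.22). Atp6v0d2 was at 0.197, 0.851 and 0.355 CPM in M_WT, against 0.340, 0.207 and 1.97 CPM in M_KO, so that its M_KO mean rested on M_KO_5642.

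Of the MiT/TFE factors, Tfeb had the highest fitted value of the lysosomal genes. It was at 6.07, 8.51 and 8.06 CPM in M_WT, against 9.24, 14.0 and 18.7 CPM in M_KO, with means of 7.55 ± 1.30 and 14.0 ± 4.71 CPM (SD, n = 3). All 3 M_KO libraries lay above all 3 M_WT libraries (log2 fold change 0.89, SE 0.29, edgeR adjusted p = 0.474), from 123 to 160 counts in M_WT and 163 to 473 counts in M_KO. Without M_KO_5642 the value was 0.62 and without M_KO_5944 it was 1.12. The F pair gave 9.91 CPM in F_WT, against 11.3 CPM in F_KO, or 1.15-fold, with an exact 95% interval (Clopper-Pearson) of 0.951 to 1.38. Tfe3 was at 141, 174 and 161 CPM in M_WT, against 149, 159 and 188 CPM in M_KO (0.06, SE 0.14). Mitf was at 260, 225 and 193 CPM in M_WT, against 215, 113 and 182 CPM in M_KO (-0.41, SE 0.25, and -0.19 without M_KO_5645). Per length, Mitf was the most abundant of these factors in M_WT (36.3 ± 5.59 FPKM), above Tfe3 (15.2, 18.8 and 17.2 FPKM) and Tfeb (1.33 ± 0.226 FPKM), with no overlap among them.

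**Figure D5:**
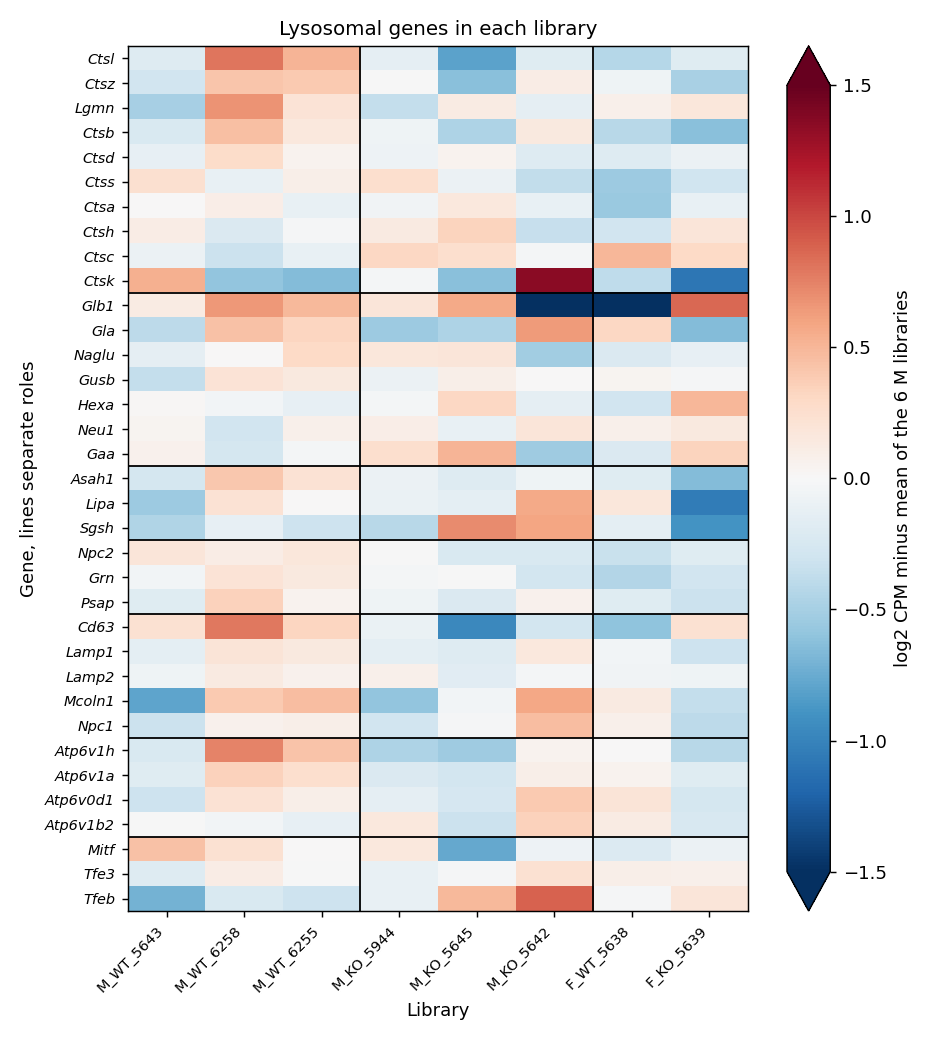
Log2 CPM of each tested lysosomal gene minus its mean over the 6 M libraries (colour, from -1.5 in blue to 1.5 in red), with libraries as columns and genes as rows grouped by role. M_WT_6258 was the highest M_WT library for 22 of 35 genes and M_WT_5643 the lowest for 24, and Glb1 stood out in M_KO_5642 and F_WT_5638.

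The promoter core was set beside these fold changes. The 13 genes with CACGTG had a median log2 fold change of -0.13 and 10 negative values, and the 16 genes without it had a median of -0.06 and 9 negative values. None of these genes was called, so the 2 sets are described and not tested. Among other lysosomal genes, 17 of 71 promoters held the core (23.9%), with medians of 0.03 both with and without it. By list, the core was in 1 of 17 promoters of other glycosidases, sulfatases and lipid hydrolases, 1 of 5 of other proteases and protease inhibitors, 2 of 10 of other V-ATPase subunits, 3 of 16 of other membrane proteins, 4 of 16 of nutrient sensing and Tfeb control, and 6 of 7 of delivery to the lysosome, where 11.9% of tested genes held it.

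Those other genes of the organelle form 6 lists of 91 genes, of which 90 passed the filter. EdgeR and DESeq2 each called 0 of the 90, with 43 negative and 47 positive fitted values and a median of 0.01. At an unadjusted edgeR p under 0.05 stood 5 of the 90, where 9.56% of all tested genes did. The groups did not overlap in the same 5 of the 90, where 16.1% of all tested genes did not. By list, this was 2 of 24 among other glycosidases, sulfatases and lipid hydrolases, 3 of 17 among other membrane proteins and transporters, and 0 of 8 other proteases and protease inhibitors, 0 of 13 other V-ATPase subunits, 0 of 10 genes of delivery and 0 of 18 genes of nutrient sensing and Tfeb control. Ids, a sulfatase of dermatan and heparan sulfate, was at 59.0, 54.1 and 45.2 CPM in M_WT, against 73.2, 95.4 and 72.3 CPM in M_KO (log2 fold change 0.60, SE 0.16, edgeR adjusted p = 0.434). Galns, a sulfatase of keratan sulfate, was at 65.1, 73.2 and 83.7 CPM in M_WT, against 60.3, 59.6 and 53.2 CPM in M_KO (-0.36, SE 0.13).

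Among the membrane proteins of those lists, Cln6, mutated in a neuronal ceroid lipofuscinosis, was at 18.6, 23.9 and 28.1 CPM in M_WT, against 30.9, 31.9 and 38.9 CPM in M_KO (0.52, SE 0.19). Ostm1, the partner of the chloride-proton exchanger Clcn7, was at 36.4, 40.1 and 42.9 CPM in M_WT, against 46.3, 47.0 and 64.9 CPM in M_KO (0.40, SE 0.17). Sidt2 was at 175, 173 and 182 CPM in M_WT, against 208, 234 and 209 CPM in M_KO (0.29, SE 0.11). In the F pair none of these 3 was higher in F_KO: Cln6 was at 31.5 CPM in F_WT, against 16.2 CPM in F_KO, and Ostm1 was lower in F_KO too. Calls of other lysosomal genes turned on 1 library. Without M_WT_5643 edgeR called 0.149% of all genes and DESeq2 1.97%, and without M_KO_5944 DESeq2 called 3.81%. Ctse, an aspartic protease of endosomes, was at 130 CPM in M_WT_5643 but at 3.83 and 3.75 CPM in the other M_WT libraries, and at 95.2, 128 and 66.8 CPM in M_KO. Without M_WT_5643 edgeR called it (log2 fold change 4.67, edgeR adjusted p = 0.0315), and with all 6 libraries it did not (1.08, SE 1.28, edgeR adjusted p = 0.819). DESeq2 without M_WT_5643 also called Hgsnat, an acetyltransferase of heparan sulfate breakdown (log2 fold change -1.95, DESeq2 adjusted p = 3.56e-05), and Fnip2, a partner of folliculin in nutrient sensing (-1.38, DESeq2 adjusted p = 0.00269). Hgsnat was at 49.1 CPM in M_WT_5643 but at 254 and 375 CPM in the other M_WT libraries, and at 59.9, 69.4 and 116 CPM in M_KO. Without M_KO_5944 DESeq2 called Igf2r, the receptor that delivers hydrolases (-1.20, DESeq2 adjusted p = 6.52e-06), which was at 174 CPM in M_KO_5944 but at 91.3 and 69.9 CPM in the other M_KO libraries, and at 171, 189 and 187 CPM in M_WT. With all 6 libraries DESeq2 called none of these 4 genes. They were chosen after their values were seen.

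In the F pair, F_KO was below F_WT for 19 of 35 lysosomal genes and above for 16, with a median log2 CPM difference of -0.02. A difference of at least 1 in size was seen for 2 of the 35, where 10.4% of genes had one. Glb1 differed by 2.42, or 5.38-fold (exact 95% interval 5.09 to 5.69), and Lipa by -1.21, from 181 CPM in F_WT to 78.0 CPM in F_KO, a ratio of 0.431 (0.407 to 0.457). These intervals cover counting error only, and there was no replicate. All 4 tested V-ATPase subunits were lower in F_KO, with a median of -0.39, and all 3 other hydrolases were, with a median of -0.75. Of all 13646 genes tested in M, 6730 were lower in F_KO and 6916 higher. The 13 V-ATPase subunits outside the members gave 9 lower and 4 higher values, with a median of -0.19. The 90 tested genes of the other lysosomal lists gave 60 lower and 30 higher.

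A test of whether the genotype difference itself differed between the letters called 0 of the 35 lysosomal genes, with a lowest edgeR adjusted p of 0.965, where 0.0218% of 13751 genes were called. At an unadjusted edgeR p under 0.05 stood 3 of the 35, where 4.36% of all genes did: Cd63 (interaction 1.69 on the log2 scale), Glb1 (2.93) and Lipa (-1.44). This test rests on 1 F library of each genotype.

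Marker genes of macrophages and of other cells that the lavage could hold were summed in each library. The 10 macrophage markers summed to 21394 to 32793 CPM in M_WT and 18648 to 21345 CPM in M_KO, led by Lyz2. The 9 dendritic cell markers summed to 26.2 to 44.1 CPM in M_WT and to 14.0 to 17.1 CPM in M_KO, and 2 of them stayed under 1 CPM in all 8 libraries. Neither sum overlapped between the genotypes. Taken singly, 3 of the 10 and 1 of the 9 markers did not overlap, where 16.1% of all tested genes did not. The dendritic cell sum held Cd209a, at 15.3 and 14.5 CPM in M_WT_6258 and M_WT_6255. Cd209a was at 0.0987 CPM in M_WT_5643 and at 0 to 0.155 CPM in M_KO, so Cd209a itself overlapped. Without Cd209a the dendritic cell sums of M_WT and M_KO would overlap. The dendritic cell marker without overlap was Zbtb46, at 7.80 to 11.1 CPM in M_WT and 5.33 to 7.54 CPM in M_KO. Of the lysosomal genes, Cd63, Npc2, Ctsc and Tfeb did not overlap. The part of macrophages and dendritic cells in those values was not tested. Lists that overlapped were resident large peritoneal macrophages (9991 to 13203 CPM in M_WT, 4568 to 15477 CPM in M_KO), B cells (149 to 481 and 221 to 703 CPM) and mast cells and basophils (306 to 764 and 101 to 620 CPM, nearly all from Hdc). Neutrophil markers summed to 5.67 to 9.53 CPM in M_WT and 5.73 to 11.2 CPM in M_KO, with 8 of 11 under 1 CPM in all 8 libraries. Markers of T and NK cells (0.760 to 2.02 and 0.316 to 1.59 CPM), eosinophils (0.709 to 2.61 and 1.22 to 1.86 CPM) and mesothelial cells and fibroblasts (2.08 to 7.30 and 3.23 to 4.34 CPM) were low. Mpo, Mcpt8 and Ear6 had a count of 0 in all 8 libraries.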

How the data were processed

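RNA was measured in 8 libraries. Per the submitters' processing notes, the authors aligned or counted with HISAT2 2.0.5 and featureCounts 1.5.0-p3 on GRCm38, and named DESeq2 1.16.1. Strand setting, annotation release and multi-mapping were not given in the sources used here. Read counts were deposited without normalization. The authors also deposited FPKM values per library. Their comparison of M_KO with M_WT holds a signal per library, made by the authors from the counts on a scale that is not stated, log2 fold changes and p-values. Every value column had its sample or group (0 left over).

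Groups came from the titles and genotype labels. Counts were tested with edgeR 4.0.16 (R 4.3.3), using quasi-likelihood F tests, TMM scaling, filterByExpr on genotype and Benjamini-Hochberg adjustment over all 13646 genes, threshold 0.05, over the 6 M libraries. Standard errors were derived from the F statistic. The interaction of genotype and letter used all 8 libraries. The F pair was compared as log2 CPM with a prior count of 2, without a test. Alternatives were DESeq2 1.42.0, limma voom 3.58.1, other scalings and filters, a fit over 8 libraries and leaving out each M library. The tests were tried on simulated counts. Total counts ran from 18206427 to 22853583, and CPM of low genes rest on few counts.

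The members, roles, pathway and marker lists were chosen with earlier results of these data known. All members may be named. Values per library were planned for members that were called or at an unadjusted edgeR p under 0.05, the 6 highest and 3 lowest by FPKM, the V-ATPase and the MiT/TFE factors, and are given for others chosen after their values were seen. Of the pathway lists, genes that were called, and up to 3 per list at an unadjusted p under 0.05 without overlap, are named. Coordinates of 35 of the 36 members were the same in GENCODE vM21. A planned comparison of protein sequences was not run.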

Additional observations from a re-analysis of the deposited data

How the results depend on the processing

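Fold changes of 40 genes, the 35 tested members with Ids, Cln6, Ostm1, Galns and Sidt2, were computed under 13 alternatives where testable. Of 519 values, 486 kept their sign, 33 changed it, and none passed or lost the threshold. Ctse, Hgsnat, Fnip2 and Igf2r were not in this count, and Ctse did pass with edgeR without M_WT_5643 (edgeR adjusted p = 0.0315). Men1 was not called by edgeR (log2 fold change -1.49, adjusted p = 0.284), under any other edgeR setting or with voom (adjusted p from 0.0533 to 0.601), but was with DESeq2 (-1.50, adjusted p = 4.45e-06). The genes called by edgeR, 3 of 13646, became 188 with DESeq2, 16 with no filter on low counts, 1 with all 8 libraries and the letter as a covariate, and 0 to 21 when 1 library was left out (0 without M_WT_6255 and 21 without M_WT_5643). Members called stayed at 0 under every edgeR, voom and DESeq2 fit with all M libraries, and DESeq2 without 1 library, added after the data were seen, gave 0 to 3. Members at an unadjusted p, 3 with all libraries, numbered 2 to 6 when 1 library was left out (also added after the data were seen), where 4.90 to 12.4% of all genes did. The pathway genes called were 0 to 1 with edgeR (1 without M_WT_5643, where 0.149% of all genes were called), and 0 to 3 with DESeq2. The DESeq2 calls were 3 without M_WT_5643, where 1.97% of genes were called, and 1 without M_KO_5944, where 3.81% were. These DESeq2 fits without 1 library were added after the data were seen. The glycosidase median, -0.02, ran from -0.18 to 0.043 and the V-ATPase median, -0.14, from -0.32 to 0.14 when 1 library was left out. With all 8 libraries the sign turned for Ctsa (0.11), Glb1 (0.14), Lipa (-0.13), Npc1 (-0.016) and Atp6v0d1 (-0.10), as it did for Ctsa with upper-quartile scaling (0.013) and Atp6v0d1 with voom (-0.0056). When 1 library was left out, the sign turned for 16 genes, whose values ran as follows: Ctsa -0.087 to 0.042, Ctsh -0.048 to 0.26, Ctsk -0.20 to 1.23, Ctss -0.30 to 0.0067, Hexa -0.035 to 0.19, Gla -0.68 to 0.027, Gaa -0.023 to 0.45, Gusb -0.18 to 0.079, Neu1 -0.0068 to 0.19, Naglu -0.21 to 0.095, Lipa -0.061 to 0.39, Npc1 -0.11 to 0.29, Mcoln1 -0.42 to 0.18, Atp6v0d1 -0.22 to 0.14, Atp6v1b2 -0.018 to 0.31, Tfe3 -0.046 to 0.14. The cause of these changes was not tested. No paired analysis was run, since each library has a number of its own and the labels name no pairs. Whether any libraries were paired is not known.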
